A study of Mus musculus with 18 samples.

Results

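Inflammasomes are protein assemblies in the cytosol of macrophages that detect danger and microbial products. The genes described here are 10 that encode their parts and the pore that follows: the sensors Nlrp3, Nlrp1a, Nlrp1b, Nlrp10, Naip2 and Naip5, the adaptor Pycard (ASC), the inflammatory caspases Casp1 and Casp4, and the pore protein Gsdmd. They were selected by symbol from the 25926 genes of the deposited table, and all 10 were found. The samples were bone marrow-derived macrophages, BMDMs, from C57BL/6J mice (C57BL/6 in the strain field). Marrow cells were cultured with 50 ng/mL M-CSF over 7 days, and the BMDMs were then cocultured in the upper chamber of Transwell plates with 0.4 μm pores, above renal tubular epithelial cells (TECs) taken from wild-type mice. The 18 samples formed 3 groups of 6. In NC the BMDMs received PBS and lay above TECs without crystals. In COM they received PBS above TECs exposed for 24 h to calcium oxalate monohydrate (COM) crystals at 100 μg/mL, and in COM+Met they received 5 mM Met for 24 h above such TECs. The labels do not spell out Met. There was no sample of Met above TECs without crystals and no BMDM sample without TECs, and no source states whether replicates are separate cultures or animals. The p-values therefore refer to the spread among replicates alone, and this spread may be technical.

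A sensor that meets its trigger gathers the adaptor ASC, which in turn gathers caspase-1. Caspase-1 cuts the precursors of interleukin-1β and interleukin-18 and also cuts gasdermin D, whose freed fragment forms pores in the plasma membrane and leads to pyroptosis. The mouse gene Casp4 encodes caspase-11, which binds bacterial lipopolysaccharide in the cytosol and cuts gasdermin D without an upstream sensor. NLRP3 responds to the loss of potassium from the cell, which crystals that have been taken up can set off, and its transcript is known to be induced through NF-κB before the protein is activated. NAIP proteins bind bacterial flagellin and secretion system proteins and act through NLRC4. NLRP1A and NLRP1B are activated by breakdown of their own amino-terminal part and are held back by dipeptidyl peptidases. Activation of all these proteins takes place by assembly and cleavage, which RNA levels do not show.

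Several members were neighbours in the genome. On GRCm38, Casp1 (chr9:5298517-5307265) and Casp4 (chr9:5308828-5336783) both lay on the plus strand, 1562 bases apart. Nlrp1a (chr11:71092236-71144704) and Nlrp1b (chr11:71153102-71230733) lay on the minus strand 8397 bases apart, and Naip2 (chr13:100144063-100202092) and Naip5 (chr13:100211739-100246323) on the minus strand 9646 bases apart. The others stood elsewhere: Nlrp3 at chr11:59541568-59566956 and Gsdmd at chr15:75862327-75867408 on the plus strand, and Nlrp10 at chr7:108921852-108930178 and Pycard at chr7:127989708-127993867 on the minus strand. Close relatives can share reads. Of all distinct 50-base stretches of the Naip5 transcripts, 36.8% also occurred in another gene, and of those of Naip2, 19.1% did, against 2.07% for Nlrp1a, 1.45% for Nlrp1b and 0% for the other 6 members. How the authors assigned such reads is not given in the sources used here, so the levels of Naip2 and Naip5 are uncertain.

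RefSeq promoter windows (GRCm38.p6, 250 bases before to 50 bases after the start site) were found for 8 of the 10 members. The windows of Casp4, which had the largest rise of the 10 in COM, and of the neighbour pairs Nlrp1a with Nlrp1b and Naip2 with Naip5 are shown. The first pair fell together in COM and again in COM+Met, Nlrp1a in COM not under every alternative. The second did not move together in COM, but both of its genes fell in COM+Met against COM. Capitals mark matches on either strand to the ISRE core GAAANNGAA or to the NF-κB consensus, the only matches among the motifs searched in these windows.
Casp4 promoter (chr9:5308599-5308898, plus strand): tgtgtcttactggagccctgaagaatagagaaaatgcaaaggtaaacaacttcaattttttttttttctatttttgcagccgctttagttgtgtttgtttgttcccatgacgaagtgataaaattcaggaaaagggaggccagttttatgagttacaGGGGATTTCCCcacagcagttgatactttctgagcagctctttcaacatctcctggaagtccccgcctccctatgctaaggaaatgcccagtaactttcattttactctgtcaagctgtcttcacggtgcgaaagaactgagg
Nlrp1a promoter (chr11:71144655-71144954, minus strand): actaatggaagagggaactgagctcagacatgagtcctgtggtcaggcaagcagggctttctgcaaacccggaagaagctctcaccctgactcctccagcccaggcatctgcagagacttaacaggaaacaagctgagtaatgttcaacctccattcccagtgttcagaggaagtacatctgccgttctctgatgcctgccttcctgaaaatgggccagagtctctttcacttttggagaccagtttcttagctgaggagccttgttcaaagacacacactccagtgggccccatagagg
Nlrp1b promoter (chr11:71230684-71230983, minus strand): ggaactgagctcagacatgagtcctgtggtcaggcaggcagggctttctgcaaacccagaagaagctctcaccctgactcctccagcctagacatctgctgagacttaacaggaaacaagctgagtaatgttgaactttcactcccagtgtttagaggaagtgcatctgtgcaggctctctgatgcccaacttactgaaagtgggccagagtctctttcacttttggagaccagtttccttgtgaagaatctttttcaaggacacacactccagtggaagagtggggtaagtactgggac
Naip2 promoter (chr13:100202073-100202372, minus strand): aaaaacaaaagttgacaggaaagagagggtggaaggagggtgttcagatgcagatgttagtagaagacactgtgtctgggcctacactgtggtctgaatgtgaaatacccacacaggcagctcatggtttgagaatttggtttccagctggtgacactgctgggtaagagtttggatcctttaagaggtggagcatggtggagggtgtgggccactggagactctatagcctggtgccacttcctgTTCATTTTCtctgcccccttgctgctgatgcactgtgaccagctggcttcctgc
Naip5 promoter (chr13:100247287-100247586, minus strand): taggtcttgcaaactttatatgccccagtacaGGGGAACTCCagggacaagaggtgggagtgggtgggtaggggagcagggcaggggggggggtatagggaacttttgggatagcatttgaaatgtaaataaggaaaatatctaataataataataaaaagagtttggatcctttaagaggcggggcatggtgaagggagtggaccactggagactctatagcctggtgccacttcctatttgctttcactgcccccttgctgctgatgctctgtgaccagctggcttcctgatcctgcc
The capitals in Casp4 hold 2 overlapping matches to the NF-κB consensus, which together span bases -93 to -83 from the start site. Naip5 held a match to the same consensus at bases -218 to -209, and Naip2 held the ISRE core on the opposite strand across its start site (bases -4 to 4). Of the 32851 promoter windows of this length in the table, 4.51% held the NF-κB consensus, 8.56% the ISRE core and 8.30% the third motif searched, TTCNNNGAA (the GAS element). Outside the windows shown, a second window of Casp4 held the same bases and a second window of Nlrp3 held the NF-κB consensus at bases -186 to -177. The windows of Nlrp1a and Nlrp1b were identical at 253 of 282 aligned bases (89.7%), and those of Naip2 and Naip5 at 196 of 275 (71.3%). A match is a description of these letters and not evidence of binding.

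Values were FPKM (mapped fragments per length of gene and per sample total), which can be compared between genes. The read depth is unknown, and the sum of FPKM per sample ran from 380730 to 449190. NC-5 and NC-6 stood apart from the other NC samples (Pearson r over genes 0.938 to 0.962), and COM-4, COM-5 and COM-6 from COM-1 to COM-3 (0.888 to 0.951), while COM+Met samples correlated at 0.989 to 0.995. No batch or date is given in the labels. All 8 macrophage markers were present in each group, with a summed level of 10601 to 17050 FPKM over all samples, most of it Lyz2. In COM against NC, Adgre1 (112 to 577 FPKM), Cd14 (64.7 to 401) and Fcgr1 (8.05 to 83.7) rose, Mertk (19.0 to 9.93) fell and the other 4 did not pass. The 14 neutrophil markers summed to 425 to 647 FPKM in NC, 1016 to 1110 in COM-1 to COM-3, 1573 to 1741 in COM-4 to COM-6 and 658 to 761 in COM+Met, but Lcn2 alone made up 640 to 1672 FPKM of the sum in COM. Of the other markers of this list S100a9 (171 to 8.43 FPKM), Ngp (30.9 to 1.60), Ltf (2.68 to 0.156) and Cxcr2 (2.26 to 0.361) fell in COM against NC, Mmp9 (5.14 to 32.6) rose with Lcn2, and 5, among them Mpo, Elane and Ly6g, were at 0 in every COM sample. The 14 tubular epithelial markers summed to 10.9 to 18.2 FPKM in NC, mostly Cdh1, to 0.484 to 1.37 in COM and to 0.0603 to 0.332 in COM+Met, with Umod and Krt18 at 0 throughout. The 8 dendritic cell markers summed to 4.80 to 32.0, 64.2 to 228 and 39.2 to 76.6 FPKM in the same order, mostly Ccr7 in COM and COM+Met. In NC, Ccr7 ran from 0.824 to 20.3 FPKM. The part of these markers in the results was not tested.

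In NC, Gsdmd had the highest mean level of the 10, 50.8 ± 13.6 FPKM (mean ± SD, n = 6), followed by Naip2 (43.8 ± 3.81), Casp1 (33.1 ± 2.43), Nlrp3 (28.8 ± 14.8), Pycard (24.7 ± 4.99), Casp4 (16.5 ± 4.37) and Naip5 (14.6 ± 4.23). Nlrp1b (8.14 ± 1.86), Nlrp1a (2.75 ± 0.794) and Nlrp10 (1.87 ± 0.489) were the lowest. In this order the values of neighbours overlapped except between Naip2 and Casp1, between Naip5 and Nlrp1b and between Nlrp1b and Nlrp1a. In COM the order was Casp1, Naip2, Gsdmd, Casp4 and Nlrp3, whose neighbours all overlapped, and then Naip5, Pycard, Nlrp1b, Nlrp1a and Nlrp10. In COM+Met, Casp1 stood above all other members in every sample, and Nlrp1b, Nlrp1a and Nlrp10 had mean levels of 0.857, 0.731 and 0.0895 FPKM. By mean level, Casp1 moved from place 1962 among all genes in NC to place 591 in COM and 482 in COM+Met, and Casp4 from 3822 to 874 and 784.

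**Figure D1:**
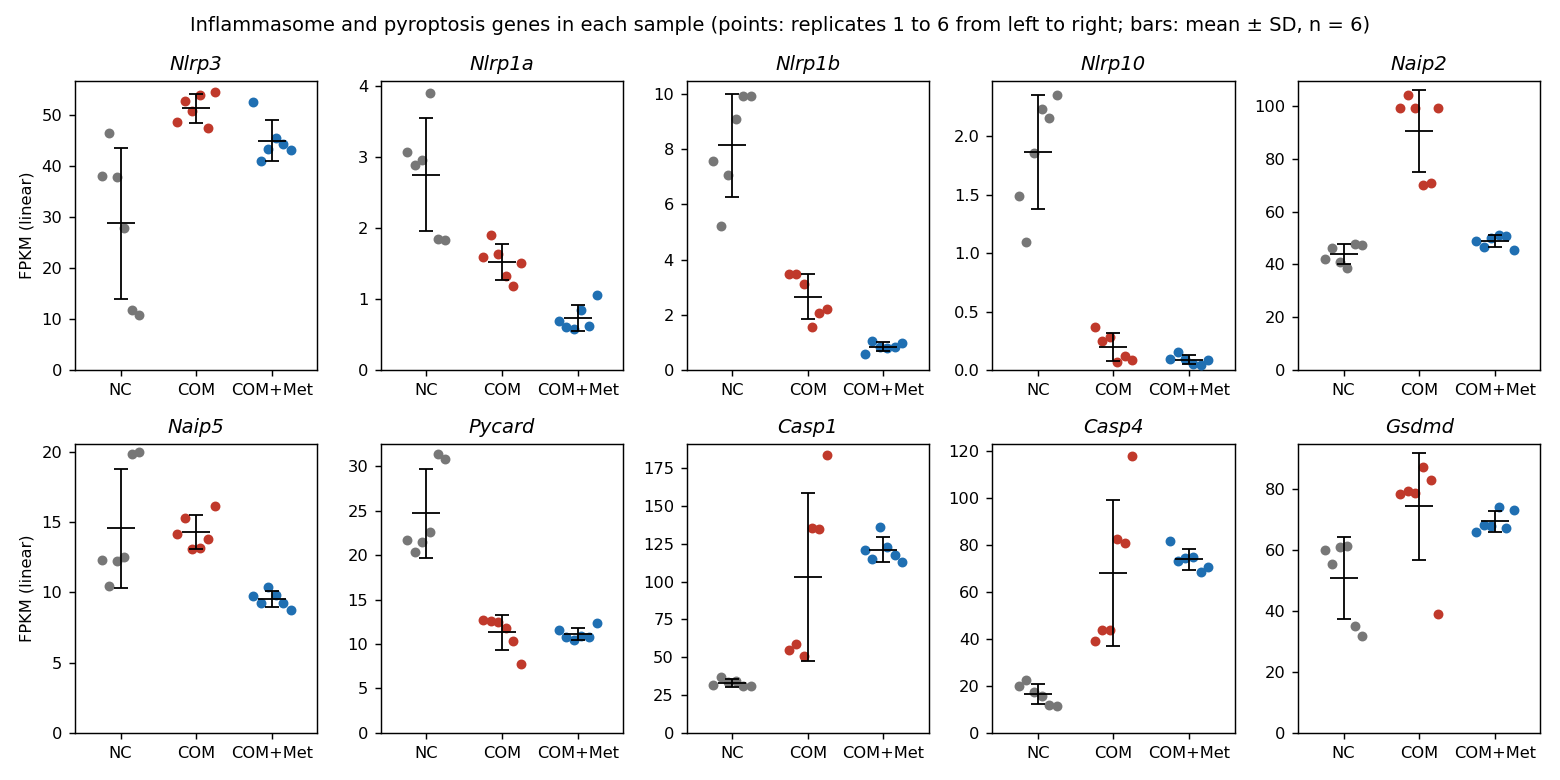
FPKM (linear axis from 0) of the 10 inflammasome and pyroptosis genes, 1 panel per gene, with points for replicates 1 to 6 of NC (grey), COM (red) and COM+Met (blue) and bars for mean ± SD (n = 6). Casp1 and Casp4 were higher in all COM and COM+Met samples than in NC, with COM-1 to COM-3 below COM-4 to COM-6, while Nlrp1b and Nlrp1a stepped down from NC to COM to COM+Met.

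The effect of crystal-exposed TECs on the BMDMs was asked with COM against NC. In COM the transcripts of both inflammatory caspases and of the sensors Nlrp3 and Naip2 rose, and those of the adaptor Pycard and of the sensors Nlrp1b, Nlrp1a and Nlrp10 fell. Of the 10 members, 4 passed the test as higher and 4 as lower (limma on log2(FPKM + 1), adjusted p below 0.05), where 53.3% of all 10900 genes tested passed, 12.7% as higher and 40.6% as lower. With a change of at least 2-fold as well, 4 members were called higher and 3 lower, against 5.99% and 11.7% of all genes (17.7% in either direction). Nlrp3, Naip2 and Pycard lay close to the 2-fold limit, and without NC-5, without NC-6 or without COM-6 4 members were called (of all genes 1830, 1850 and 1727, in place of 1926), Nlrp10 being below the filter on low values in the former 2 cases. With median-of-ratios size factors or quantile normalisation 4 were called higher and 1 lower, Pycard passing below 2-fold (-0.76 and -0.86), while 874 genes were higher and 812 lower, or 810 and 863, in place of 653 and 1273. In 7 members the 6 samples of COM did not overlap with those of NC, 4 higher and 3 lower, which held for 38.2% of all genes, 8.6% higher and 29.7% lower. The median log2 fold change was 0.28 over the members and -0.27 over all genes tested, so a member with the same FPKM in both groups stood above the median gene. The members were chosen knowing earlier results of these data, so these counts are not independent evidence.

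Casp4 was at 11.5 FPKM in the lowest, 16.6 in the median and 22.5 in the highest NC sample, and at 39.3, 62.3 and 118 in COM. The groups did not overlap, and the COM samples fell apart into 39.3 to 43.9 FPKM in COM-1 to COM-3 and 80.7 to 118 in COM-4 to COM-6. The log2 fold change was 1.90 (SE 0.27, limma adjusted p = 0.000107), or 2.17 relative to the median of all genes. With COM-1 to COM-3 alone it was 1.35, and with COM-4 to COM-6 alone 2.45. Casp1, its neighbour, ran from 30.7 through a median of 32.9 to 36.9 FPKM in NC and from 50.7 through 96.8 to 184 in COM. It was narrow in NC and split in COM in the same way, 50.7 to 59.0 FPKM in COM-1 to COM-3 and 135 to 184 in COM-4 to COM-6. Its log2 fold change was 1.43 (SE 0.30, limma adjusted p = 0.00162), 0.71 with COM-1 to COM-3 alone and 2.15 with COM-4 to COM-6 alone. In bulk RNA a change in the share of a cell type and a change in RNA per cell cannot be told apart. The sum of the dendritic cell markers, mostly Ccr7, was lower in COM-4 to COM-6 than in COM-1 to COM-3. That of the neutrophil markers was higher, but Lcn2 made up 640 to 1672 FPKM of it in COM. This sum therefore does not show a rise of the other neutrophil markers, of which S100a8 ran from 28.4 to 301 FPKM in COM. The part of these markers in the split was not tested.

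Nlrp3 was at 10.9, 32.9 and 46.6 FPKM in the lowest, median and highest NC sample and at 47.6, 51.9 and 54.6 in COM. Every COM sample lay above every NC sample, but NC was wide, with NC-1 to NC-4 at 27.9 to 46.6 FPKM and NC-5 and NC-6 at 10.9 and 11.8. The log2 fold change was 1.00 (SE 0.32, limma adjusted p = 0.0189) with all samples. Without NC-5 and NC-6 it was 0.46 (adjusted p = 0.0175), and it no longer passed with COM-4 to COM-6 left out (adjusted p = 0.0929) or with COM-1 to COM-3 left out (adjusted p = 0.0723). Its size thus depended on the pair of low NC samples, and it was positive in each of these cases.

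Naip2, the sensor of rod proteins of bacterial secretion systems, ran from 38.6 through 44.2 to 47.8 FPKM in NC and from 70.1 through 99.1 to 104 in COM. No COM sample was as low as an NC sample, and COM-4 and COM-5 were the lowest of COM. The log2 fold change was 1.01 (SE 0.13, limma adjusted p = 3.26e-05). Naip5, the flagellin sensor beside it, was at 10.4, 12.4 and 20.02 FPKM in NC and at 13.1, 13.99 and 16.2 in COM. The ranges overlapped because NC-5 and NC-6, at 19.9 and 20.02 FPKM, lay above every COM sample while NC-1 to NC-4, at 10.4 to 12.5, lay below. Its log2 fold change was 0.01 (95% confidence interval -0.32 to 0.35, limma adjusted p = 0.952).

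Of the falling sensors, Nlrp1b was at 5.22, 8.34 and 9.94 FPKM in the lowest, median and highest NC sample and at 1.55, 2.66 and 3.50 in COM, without overlap. It fell by 1.33 on the log2 scale (SE 0.18, limma adjusted p = 6.07e-05), and its mean FPKM was 3.07-fold lower. Nlrp1a ran from 1.83 through 2.92 to 3.90 FPKM in NC and from 1.18 through 1.55 to 1.91 in COM. Only COM-2 reached above the lowest NC samples, NC-5 and NC-6, and the fall was 0.55 on the log2 scale (log2 fold change -0.55, SE 0.14, limma adjusted p = 0.00593). After scaling by median-of-ratios size factors, which centre the genes, it did not pass (adjusted p = 0.0539), nor after quantile normalisation (adjusted p = 0.199) or without COM-4 to COM-6 (-0.44, adjusted p = 0.0582). Nlrp10, an NLR protein without leucine-rich repeats, was low in NC, from 1.10 through 2.01 to 2.36 FPKM, and near 0 in COM, from 0.0714 through 0.184 to 0.367. The groups did not overlap, the mean FPKM was 9.54-fold lower, and the log2 fold change of -1.25 (SE 0.13, limma adjusted p = 8.28e-06) understates this because 1 FPKM was added.

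Pycard, the adaptor through which NLRP3 recruits caspase-1, ran from 20.3 through 22.2 to 31.4 FPKM in NC and from 7.81 through 12.1 to 12.7 in COM. No COM sample reached an NC sample, and COM-6 was the lowest. The log2 fold change was -1.06 (SE 0.15, limma adjusted p = 7.87e-05), or -0.79 relative to the median of all genes. Within a sample, the ratio of Casp1 to Pycard FPKM was 0.980 to 1.82 in NC and 4.07 to 23.5 in COM. That of Nlrp3 to Pycard was 0.352 to 2.30 in NC and 3.82 to 6.99 in COM. The ranges of both ratios did not overlap between the groups.

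Gsdmd was at 31.9, 57.8 and 61.3 FPKM in the lowest, median and highest NC sample and at 39.1, 79.0 and 87.1 in COM. Of the 6 COM samples 5 lay above all NC samples, and COM-6, at 39.1 FPKM, lay far below its group. The log2 fold change was 0.54 (95% confidence interval 0.052 to 1.03) and did not pass (limma adjusted p = 0.0593, exact two-sided permutation p = 0.0693). Without COM-6 it was 0.72 and passed (adjusted p = 0.00467), as it did without COM-4 to COM-6 (0.67, adjusted p = 0.0290), with rescaling to TPM, with median-of-ratios size factors (0.86), with quantile normalisation, with the replicate block, in the fit of all 18 samples and with sample weights (adjusted p from 0.000838 to 0.0479), while without NC-5 and NC-6 it was 0.27 (adjusted p = 0.300).

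**Figure D2:**
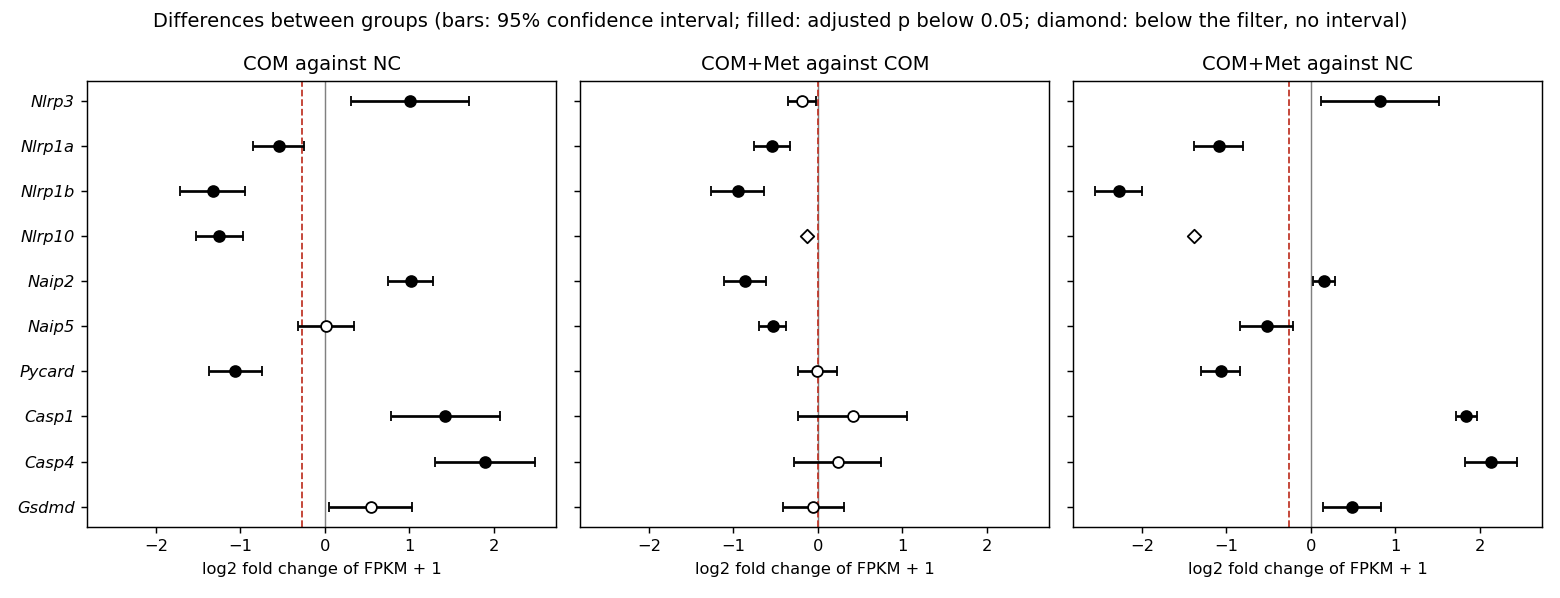
Log2 fold change of FPKM + 1 of each of the 10 genes in the comparisons COM against NC, COM+Met against COM and COM+Met against NC, with 95% confidence intervals, filled where the limma adjusted p was below 0.05 and a diamond for Nlrp10 where it was below the filter on low values. The dashed red line is the median of all genes tested (-0.27, 0.0033 and -0.26), and Casp4, at 1.90 and 2.13, had the largest rise against NC in both treated groups.

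The action of Met above crystal-exposed TECs was asked with COM+Met against COM. Naip2, Naip5, Nlrp1a and Nlrp1b were lower with Met in every sample, while no difference was shown for Nlrp3, Pycard, Casp1, Casp4 and Gsdmd. Of the 9 members tested, 0 passed as higher and 4 as lower, where 13.4% of the 10364 genes tested passed, 5.77% as higher and 7.58% as lower. None of the 4 reached 2-fold on this scale, which 2.22% of all genes did in passing the test, 0.608% as higher and 1.61% as lower. At an unadjusted p below 0.05, 0 members were higher and 5 lower, the further member being Nlrp3. The share of all genes at this unadjusted level is not given here, and it is at least the 13.4% that passed after adjustment. The same 4 were the members whose groups did not overlap, against 11.2% of all genes, 5.83% higher and 5.34% lower. Nlrp10, at 0.0439 to 0.157 FPKM with Met and 0.0714 to 0.367 without, was below the filter on low values (exact two-sided permutation p = 0.0823).

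Naip2 ran from 45.6 through 49.4 to 51.3 FPKM in COM+Met, against 70.1 to 104 in COM. Its log2 fold change was -0.86 (SE 0.11, limma adjusted p = 0.00055). Naip5 ran from 8.74 through 9.51 to 10.4 FPKM in COM+Met, against 13.1 to 16.2 in COM. It fell by 0.54 on the log2 scale (SE 0.07, limma adjusted p = 0.000652). Thus with Met the level of Naip2 came close to that of NC (38.6 to 47.8 FPKM), and that of Naip5 went below every NC sample.

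Nlrp1b was at 0.586, 0.849 and 1.07 FPKM in the lowest, median and highest COM+Met sample, below all COM samples. The fold change on the log2 scale was -0.95 (SE 0.14, limma adjusted p = 0.00127), and the mean FPKM was 3.10-fold lower. Nlrp1a was at 0.577, 0.653 and 1.05 FPKM with Met and fell by 0.54 on the log2 scale (SE 0.10, limma adjusted p = 0.00366), with a mean FPKM 2.08-fold lower. Both genes, low already in COM, thus went down a further step. At about 1 FPKM the precision of a value is unknown, since the read depth is.

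Casp1 ran from 113 through 119 to 136 FPKM in COM+Met and Casp4 from 68.4 through 73.7 to 81.5. These narrow ranges lay between the lower and the higher COM samples, apart from Casp1 in COM+Met-3 and Casp4 in COM+Met-1, which reached the levels of COM-4 and COM-5. The log2 fold changes were 0.41 for Casp1 (95% confidence interval -0.23 to 1.06, limma adjusted p = 0.393) and 0.23 for Casp4 (-0.29 to 0.75, adjusted p = 0.561), so changes of up to about 2-fold for Casp1 remain within the interval. The result depended on which COM samples served as the reference. Against COM-1 to COM-3 alone, Casp1 was higher with Met by 1.13 (adjusted p = 6.18e-08) and Casp4 by 0.79 (adjusted p = 4.95e-07). Against COM-4 to COM-6 alone, they were at -0.30 (adjusted p = 0.0772) and -0.32 (adjusted p = 0.0841), the opposite sign.

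Nlrp3 ran from 41.1 through 43.9 to 52.6 FPKM in COM+Met, and 5 of these 6 samples lay below all COM samples. Its log2 fold change of -0.19 (95% confidence interval -0.36 to -0.02) did not pass after adjustment (limma adjusted p = 0.130). Pycard ran from 10.4 through 10.9 to 12.3 FPKM (log2 fold change -0.00, 95% confidence interval -0.24 to 0.23, limma adjusted p = 0.983). Gsdmd ran from 65.7 through 68.0 to 74.2 FPKM (-0.05, -0.42 to 0.31, adjusted p = 0.866). For Pycard and Gsdmd the intervals leave room for differences of either sign. Without COM-4 to COM-6, 2 members passed as higher and 7 as lower with Met, Nlrp3, Pycard and Gsdmd among the latter (log2 fold changes -0.17, -0.17 and -0.18), and without COM-1 to COM-3, where Nlrp1a was below the filter on low values, 0 passed as higher and 3 as lower (Naip2, Naip5 and Nlrp1b). Over all genes, 236 were called higher and 535 lower without COM-4 to COM-6, in place of 63 and 167. Without COM-1 to COM-3 these numbers were 96 and 131. The share of all genes that passed in these 2 settings is not given here, so the member counts cannot be read as particular to the members.

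COM+Met against NC shares its samples with the other comparisons and shows where the members stood with both treatments. Casp1, Casp4, Nlrp3, Gsdmd and Naip2 were higher and Nlrp1a, Nlrp1b, Naip5 and Pycard lower, so that all 9 members tested passed, where 75.2% of the 10786 genes tested did, 19.3% as higher and 55.9% as lower. Of these, 2 were called higher and 3 lower, against 5.66% and 13.6% of all genes (19.3% in either direction). Groups did not overlap for Casp1, Casp4 and Gsdmd, higher, and for Nlrp1a, Nlrp1b, Naip5 and Pycard, lower, where 57.6% of all genes did not overlap, 14.1% higher and 43.6% lower. Casp4 had a log2 fold change of 2.13 (SE 0.14, limma adjusted p = 2.12e-08) and Casp1 of 1.84 (SE 0.06, adjusted p = 3.07e-11), both with narrower intervals than in COM against NC. Nlrp1b fell by 2.28 (SE 0.13, adjusted p = 5.78e-09), Nlrp1a by 1.09 (SE 0.14, adjusted p = 8.35e-06) and Pycard by 1.06 (SE 0.11, adjusted p = 1.11e-06). Nlrp10, below the filter, was 20.9-fold lower in mean FPKM, without overlap (exact two-sided permutation p = 0.00216, the smallest that 924 divisions of 12 samples can give).

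The smaller differences from NC were less firm. Gsdmd was higher in all 6 COM+Met samples than in any NC sample, with a log2 fold change of 0.49 (SE 0.16, limma adjusted p = 0.0134) that was 0.22 without NC-5 and NC-6. Nlrp3 was at 0.82 (SE 0.32, adjusted p = 0.0350) and, without NC-5 and NC-6, at 0.27 (adjusted p = 0.0412), but it did not pass without NC-5, without NC-6 or without any single COM+Met sample except COM+Met-2 (0.59 to 0.83, adjusted p from 0.0522 to 0.0719), without a filter (adjusted p = 0.0586) or with sample weights (0.30, adjusted p = 0.0760). Naip2 was higher by 0.16 (SE 0.06, adjusted p = 0.0269), with overlapping groups, and did not pass after rescaling to TPM (adjusted p = 0.0721), with the replicate block (0.0694), in the fit of all 18 samples (0.196) or without NC-1, NC-3, NC-4, COM+Met-3, COM+Met-4 or COM+Met-5 (0.0510 to 0.0599). Naip5 was lower by a log2 fold change of -0.52 (SE 0.14, adjusted p = 0.00477), but with median-of-ratios size factors or quantile normalisation it did not pass (adjusted p = 0.154 and 0.118).

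Ratios of neighbouring genes within a sample do not depend on its scaling. The ratio of Casp4 to Casp1 FPKM was 0.373 to 0.620 in NC, 0.5996 to 0.865 in COM and 0.544 to 0.672 in COM+Met, while both levels rose together across the samples. The ratio of Naip2 to Naip5 was 2.36 to 4.43 in NC, 5.13 to 7.57 in COM and 4.80 to 5.45 in COM+Met. It was thus higher in every COM and COM+Met sample than in any NC sample, although the Naip2 level with Met was close to NC. The ratio of Nlrp1b to Nlrp1a ran from 1.81 to 2.47 over NC-1 to NC-4 and was 5.38 and 5.44 in NC-5 and NC-6, with 1.17 to 2.21 in COM and 0.853 to 1.78 in COM+Met. NC-5 and NC-6 thus held more Nlrp1b and less Nlrp1a than the other NC samples.

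**Figure D3:**
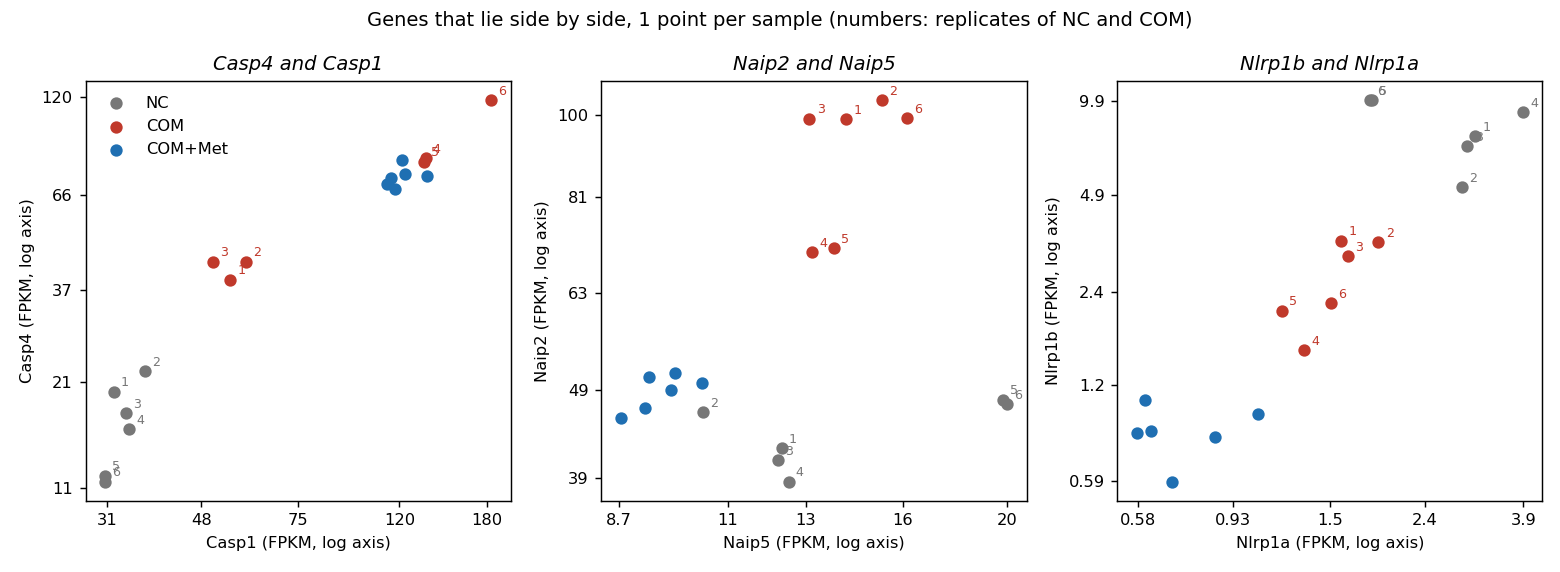
FPKM of neighbouring genes in each of the 18 samples, on log axes: Casp4 against Casp1, Naip2 against Naip5 and Nlrp1b against Nlrp1a, with NC grey, COM red and COM+Met blue and with replicate numbers for NC and COM. Casp1 and Casp4 were raised together, with COM-1 to COM-3 between NC and the rest. Naip2 was high in COM at levels of Naip5 within the NC range, and NC-5 and NC-6 stood apart in the Naip and Nlrp1 panels.

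The other genes of the pathway were taken from 7 lists with 63 genes in the table, of which 51 were tested in COM against NC and 50 in COM+Met against COM. In the former 19 passed as higher and 16 as lower, beside 12.7% and 40.6% of all genes, and in the latter 2 and 11, beside 5.77% and 7.58%, and the counts of the single lists are to be read against the same shares. Their median log2 fold changes were 0.06 and -0.09. For the counts with Met at an unadjusted p below 0.05 the shares of all genes are not given here. They are at least as large as 5.77% higher and 7.58% lower. Of the other sensors, 6 of 10 tested passed as higher in COM and 1 as lower. Mefv, which encodes pyrin, rose from a mean of 3.14 to 29.5 FPKM (log2 fold change 3.20, limma adjusted p = 6.79e-05), Nlrc5, a regulator of MHC class I genes, from 2.32 to 14.4 FPKM (2.16, adjusted p = 3.93e-05) and Nod1, a peptidoglycan sensor, from 6.76 to 15.7 FPKM (1.00, adjusted p = 0.0118). For Nod1 NC and COM overlapped (4.84 to 10.2 and 7.94 to 26.2 FPKM). Nlrc3, which dampens innate signalling, fell from 4.18 to 0.921 FPKM (-1.37, adjusted p = 8.16e-05). With Met, 0 of 10 passed as higher (1 at an unadjusted p below 0.05) and 4 as lower. They were Mefv (-0.36, limma adjusted p = 0.0194) and, named after their values were seen, the relatives and the partner of Naip2 and Naip5: Naip6 (-0.62, adjusted p = 0.00097), Naip1 (-0.51, adjusted p = 0.00456) and Nlrc4 (-0.38, adjusted p = 0.0105). All 5 NAIP and NLRC4 genes listed here were thus lower with Met, although part of their sequence is shared, 22.3% of the Naip5 stretches with Naip6 and 12.3% of the Naip2 stretches with Naip1.

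Among activators and sensor regulators, 3 of 13 passed as higher in COM and 6 as lower. The guanylate-binding proteins Gbp5 and Gbp2, which open bacterial membranes to caspase-11 and assist inflammasomes, rose from means of 4.62 to 170 FPKM (log2 fold change 4.61, limma adjusted p = 5.52e-05) and of 28.6 to 525 FPKM (4.19, adjusted p = 1.62e-05). Like Casp1 and Casp4, they were wide in COM, with Gbp5 at 45.0 to 344 FPKM there and at 256 to 294 with Met. Tnfaip3, the NF-κB inhibitor A20, rose from 34.7 to 85.5 FPKM (1.51, adjusted p = 0.00649). Serpinb1a, an inhibitor of neutrophil proteases that also restrains inflammatory caspases, fell from 20.8 to 1.25 FPKM (-2.96, adjusted p = 6.66e-05), and with Met, at 0.263 FPKM, it was below the filter on low values. With Met, 0 of 12 tested passed as higher (2 at an unadjusted p below 0.05) and 1 as lower. That gene, Txnip, named after its values were seen, encodes a thioredoxin-binding protein that can activate NLRP3, and it went from a mean of 69.4 to 24.0 FPKM (-1.49, SE 0.10, adjusted p = 5.69e-06).

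Of the other caspases, 2 of 6 tested passed as higher in COM and 3 as lower. Casp6 (log2 fold change -0.70, limma adjusted p = 0.00028), Casp9, the initiator of mitochondrial apoptosis (-0.70, adjusted p = 0.0150), and Casp2 (-0.56, adjusted p = 0.00793) fell. For Casp2 NC and COM overlapped, as did COM and COM+Met. With Met, 0 passed as higher (0 at an unadjusted p below 0.05) and 3 as lower, Casp6 (-0.45, adjusted p = 0.00800) and Casp2 (-0.40, adjusted p = 0.0300) among them. Among other gasdermins and membrane rupture genes, 2 of 10 were tested, Ninj1 and Gsdme. In COM 1 passed as higher and 0 as lower, and with Met 1 and 0 (1 higher and 1 lower at an unadjusted p below 0.05). Gsdme, named after its values were seen, did not pass in COM (0.37, limma adjusted p = 0.369). With Met it went from a mean of 8.54 to 4.13 FPKM (-0.77) and did not pass after adjustment (adjusted p = 0.0717). Ninj1, which ruptures the membrane after the pore has formed, rose in COM from 75.7 to 134 FPKM (0.90, adjusted p = 0.0202) and further with Met to 196 FPKM (0.58, adjusted p = 0.0293), while Gsdmd was at -0.05 with Met. For Ninj1 NC and COM overlapped (35.4 to 103 and 81.2 to 172 FPKM). Of the membrane repair genes, which encode the ESCRT-III machinery that can seal gasdermin pores, 1 of 9 passed as higher in COM and 4 as lower, and with Met 0 passed (1 higher and 2 lower at an unadjusted p below 0.05). Chmp3 (-0.72, adjusted p = 4.23e-05), Chmp2b (-0.67, adjusted p = 0.000769) and Pdcd6ip (-0.43, adjusted p = 0.00417) fell and Chmp4b rose (0.30, adjusted p = 0.0360), against a median of -0.27 over all genes. For Chmp4b NC and COM overlapped.

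The cytokine list holds interleukin-1β and interleukin-18, which caspase-1 cuts, with interleukin-1α and inhibitors, and all 6 of its genes passed in COM, 4 as higher and 2 as lower. With Met, 0 of 6 passed as higher (0 at an unadjusted p below 0.05) and 3 as lower, namely Il1b, Il1r2 and Il1rn. Both caspase-1 substrates passed in COM, in opposite directions. Il1b was at 4.18, 89.8 and 209 FPKM in the lowest, median and highest NC sample, at 455, 548 and 609 in COM and at 158, 171 and 184 in COM+Met. It was lower with Met in every sample (log2 fold change -1.64, SE 0.10, limma adjusted p = 5.61e-06), after a rise of 3.55 (SE 0.80, adjusted p = 0.00255) in COM. Il18, named after its values were seen, fell in COM from a mean of 10.8 to 4.61 FPKM (-1.11, SE 0.22, limma adjusted p = 0.00126) and was at 3.98 FPKM with Met (-0.13, adjusted p = 0.746). Il18bp, which binds interleukin-18, rose from 3.56 to 86.8 FPKM (3.997, adjusted p = 4.76e-06) and Il1a from 67.7 to 319 FPKM (2.61, adjusted p = 0.00700), and with Met they were at 82.7 and 260 FPKM. Il1r2, the decoy receptor of interleukin-1, fell from 20.6 to 6.73 FPKM (-1.25, adjusted p = 0.0227) and to 1.82 FPKM with Met (-1.44, adjusted p = 0.000356). NC and COM overlapped for Il1a (9.02 to 178 and 142 to 666 FPKM), for Il1r2 (5.73 to 33.6 and 4.21 to 9.43 FPKM) and for Il18. Of 5 transcription factors of inflammasome genes, Irf1 (33.7 to 75.4 FPKM, 1.13, adjusted p = 0.00530) and Irf8 (35.6 to 68.0 FPKM, 0.84, adjusted p = 0.0136) rose in COM, and Irf1 rose further with Met to 118 FPKM (0.72, adjusted p = 0.0452). For Irf1 COM, wide as for Casp1 and Casp4, overlapped with COM+Met (48.5 to 111 and 107 to 149 FPKM). For Irf8 NC and COM overlapped (26.1 to 41.9 and 30.3 to 91.0 FPKM).

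**Figure D4:**
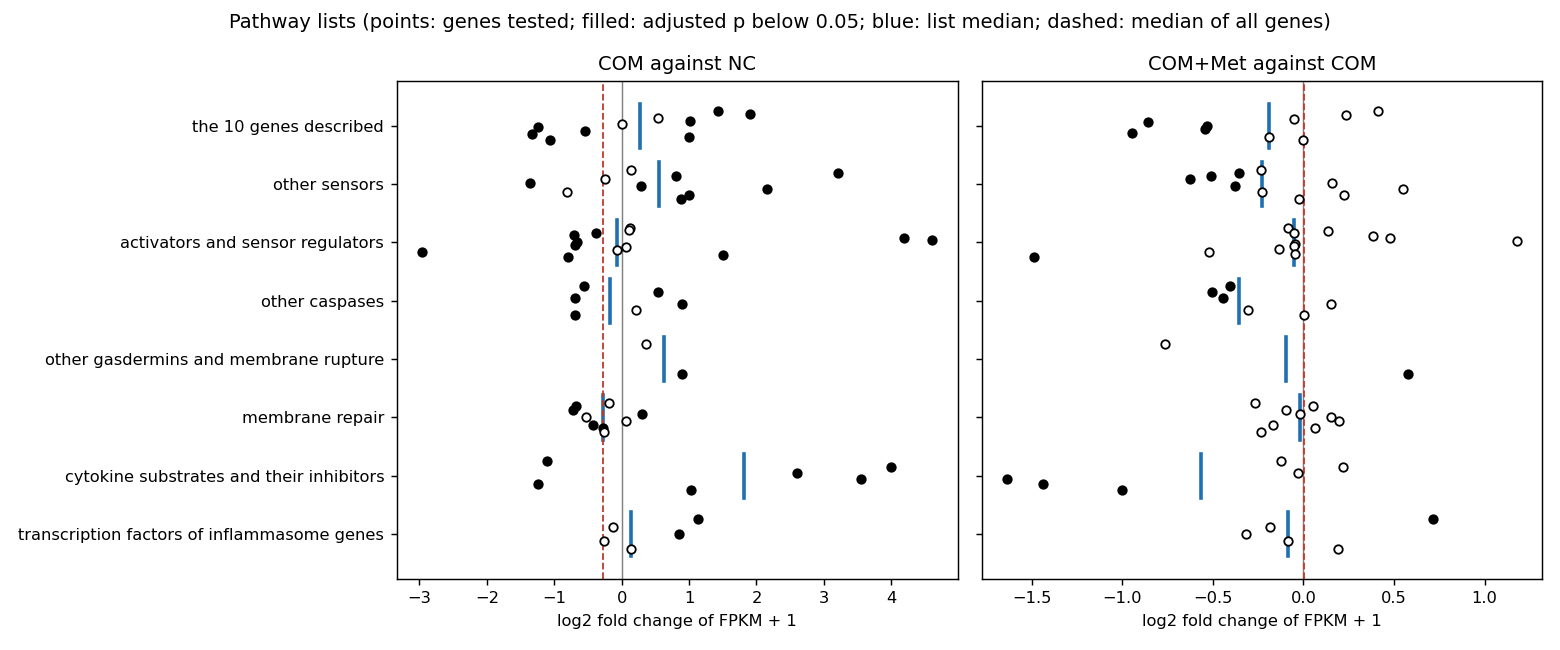
Log2 fold change of FPKM + 1 of the genes tested in the 10 genes described and in 7 further lists of the pathway, for COM against NC and COM+Met against COM, filled where the limma adjusted p was below 0.05, with the list median in blue and the median of all genes as a dashed red line. In COM the members spread from -1.33 to 1.90 around a median of 0.28, and with Met the filled points of the members all lie below 0.

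The genes whose pattern over the 18 samples was most like that of a member were found by the root mean square difference of centred log2(FPKM + 1) among 10751 genes, as a description without a test. For Casp4 these were Dtx3l (0.12), Cflar (0.14) and Sp110 (0.18), against 1.03 for the root mean square of Casp4 itself. Cflar, the inhibitor of caspase-8 activation, had means of 31.1, 123 and 156 FPKM in NC, COM and COM+Met. For Nlrp3 they were Malt1 (0.16), Spred1 (0.16) and Zc3h12c (0.18), against 0.64, and for Nlrp1b they were Klf10 (0.18), Rab44 (0.21) and Il6ra (0.21), against 0.97. Malt1, a paracaspase upstream of NF-κB, had means of 69.2, 137 and 129 FPKM, and Klf10, a zinc finger repressor, of 24.7, 9.21 and 3.76 FPKM. The points share the 3 groups, and some of them are the samples that stand apart within NC and COM.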

How the data were processed

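RNA from 18 BMDM samples in 3 groups of 6 was sequenced from TruSeq libraries of total RNA, and the sample labels gave group and replicate number. The authors deposited FPKM for each gene and sample without pooling replicates. Bowtie 0.12.2 is named in the submitters' processing notes, as are mm8 and mm9. Which program and annotation gave FPKM is not given in the sources used. FPKM does not give the read depth: among low genes, at most 0.368% shared the most common ratio between samples, so whole reads could not be recovered and no counting error is given. FPKM is relative to the sample total, so abundant genes that rise lower the others.

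Values were transformed to log2(FPKM + 1), which understates changes of low genes. Each comparison was a limma 3.58.1 fit (lmFit, eBayes with trend; R 4.3.3) of its own 12 samples, restricted to genes averaging 1 FPKM or more in them, and p-values were adjusted by Benjamini-Hochberg over every gene in the fit. A gene passed at an adjusted p below 0.05 and was called when it also changed at least 2-fold on this scale. All 10 members were tested in COM against NC and 9 in the other comparisons. For single genes a two-sided exact permutation test used all 924 divisions of the 12 samples. The fit was tested on simulated data. Python 3.11.15 was used with Biopython 1.88, matplotlib 3.10.9, pandas 2.3.3 and numpy 2.4.6. The table has no coordinates, so positions came from GENCODE by Ensembl identifier and promoters from RefSeq, both on GRCm38. The processing notes do not name this build, and which build the deposited values rest on is unknown.

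The members and the gene lists were chosen with earlier results of these data known. Of each pathway list, values are given for at most 4 genes that passed, those with the largest change in COM against NC or COM+Met against COM. Genes marked as named after their values were seen are given in addition to these, and Gsdme among them did not pass in either comparison. Patterns like those of Nlrp3, Casp4 and Nlrp1b were ranked by root mean square difference. Of the names on the pathway lists, 2 (Irgb10 and Dfna5) had no row under that symbol and were not analysed here, and the values of some other caspases are not reported here. Alternatives were pseudocounts of 0.1 and 5, no filter and a filter of 5 FPKM, quantile normalisation, rescaling to TPM, division by median-of-ratios size factors, a replicate block, 1 fit of all 18 samples, sample weights, each sample left out, and the samples that stood apart left out.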

Additional observations from a re-analysis of the deposited data

Results flagged for a closer look

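Each of the 10 genes was examined for a sample far from the others of its group, in 30 pairs of gene and group, where chance alone would give such a sample in about 1 of 20 groups. In 1 pair the gap to the nearest sample was above Dixon's limit: Gsdmd in COM-6, at 39.1 FPKM, while the other COM samples lay between 78.3 and 87.1 FPKM. The gap made up 0.816 of the range of the group. In the same sample Casp1 (184 FPKM) and Casp4 (118 FPKM) were the highest and Pycard (7.81 FPKM) the lowest of COM. Over 10751 genes, COM-6 correlated with the other COM samples at no more than 0.935.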

How the results depend on the processing

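Of the log2 fold changes of the members, 594 of the values under the alternatives kept their direction and their side of the threshold, 19 passed where the reported value had not, 25 no longer passed and 21 changed sign. Of the counts of called genes, 124 stayed within 1.5 times the reported count and 20 did not. In COM against NC, 1926 genes and 7 members were called. A pseudocount of 5 gave 980 genes and 2 members, and sample weights 1327 genes and 3 members. Leaving out NC-5 and NC-6 gave 1699 genes and 4 members, and leaving out COM-4 to COM-6 gave 1406 genes and 4 members. Single samples left out gave 1727 to 2073 genes and 4 to 7 members. In COM+Met against COM, 230 genes and 0 members were called. A pseudocount of 0.1 gave 370 genes and 1 member, a pseudocount of 5 gave 90 genes, sample weights 719 genes and 3 members, leaving out COM-4 to COM-6 771 genes and 3 members, and single samples left out gave 0 to 1 member, the latter without COM-4. In COM+Met against NC, 2078 genes and 5 members were called. A pseudocount of 5 gave 1117 genes and 3 members, a filter of 5 FPKM 3 members (fewer members were tested) and quantile normalisation 3. Signs changed only for values near 0 or that rest on the division of COM. Pycard in COM+Met against COM was 0.016 with median-of-ratios size factors, 0.0059 with quantile normalisation and 0.16 without COM-1 to COM-3, the setting in which Gsdmd was 0.076, Casp4 -0.32 and Casp1 -0.30. With single samples left out, Naip5 in COM against NC ran from -0.069 to 0.11, Pycard in COM+Met against COM from -0.097 to 0.031 and Gsdmd from -0.23 to 0.0014. Apart from the settings that leave samples out, the cause of these changes was not tested.

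Median-of-ratios size factors moved the median of all genes in COM against NC from -0.27 to 0.0077 and raised the percentage of higher genes among those called from 33.9% to 51.8% (48.4% with quantile normalisation), and in COM+Met against NC from 29.4% to 46.5% (45.6%). The replicate numbers gave no sign of pairing the samples: deviations of samples with the same number correlated at -0.22 to 0.057. The samples that stand apart within NC and COM enter these deviations, so whether samples were paired cannot be told from them. With the replicate block 1920 genes and 7 members were called in COM against NC, 202 and 0 in COM+Met against COM and 2080 and 5 in COM+Met against NC. The number of reads behind a value is unknown, which limits most what can be said of Nlrp10 and, with Met, of Nlrp1a and Nlrp1b.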
